A study of Cordyceps militaris with 6 samples.

Results

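VeA (CCM_04531), AbaA (CCM_05444) and Con-13 (CCM_00714), genes that regulate or mark fungal development, were followed through a subculture series of the ascomycete Cordyceps militaris. They were taken by locus tag from the deposited expression table and make up 3 of its 10385 genes. Poly(A)-selected RNA came from mycelium of the YCC strain, with 1 library from each of passages 1 to 6. Every culture was shaken in liquid medium in the dark for 72 hours, so strain, light and culture time were the same in all 6 groups and passage number was what differed. The study asked how the transcriptome diverges while a strain degenerates, that is, loses its ability to fruit on repeated subculture. Total counts per library ran from 9740171 in passage 1 to 13813999 in passage 2. No passage had a replicate and all 6 libraries belong to one lineage, so passage and library cannot be told apart, and neighbouring passages may depend on each other. In RNA from whole mycelium, fewer cells of a type and less RNA per cell cannot be told apart either.

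VeA is a velvet protein. In Aspergillus nidulans it enters the nucleus in the dark, where it joins the velvet protein VelB and the methyltransferase LaeA, and it promotes sexual development and controls secondary metabolism. AbaA is a transcription factor of the TEA family that acts between BrlA and WetA in the A. nidulans pathway of conidium formation, where it is needed for the cells that bud off conidia. Con-13 takes its name from a Neurospora crassa gene that is expressed when conidia form. The products of CCM_04531 and CCM_05444 are named in the table from the C. militaris CM01 reference itself, as sexual development activator VeA and transcription factor AbaA. The name of CCM_00714 comes from a protein of Talaromyces islandicus, Conidiation-specific protein 13, so its identity as Con-13 rests on that match.

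All 3 genes lie on the minus strand of the CM01 assembly CmilitarisCM01_v01, whose scaffold names the deposited tables use. VeA spans NW_006271971.1 from 2887036 to 2890698, AbaA spans NW_006271972.1 from 1305501 to 1308890, and Con-13 spans NW_006271969.1 from 2254508 to 2255417. The authors' list of revised gene models extended VeA by 805 bp and AbaA by 319 bp at the 3' end, and listed no extension for Con-13. VeA and AbaA are long genes, with 2571 and 2817 bp behind their FPKM values (fragments per kilobase of gene, scaled to library size), while Con-13 is short, with 789 bp. This matters because the passage 1 library differed from the others by gene length. Among 8483 genes whose mean FPKM was 1 or more, the log2 deviation of passage 1 from the mean of the later passages had a rank correlation of 0.391 with length, a description across genes that share the same libraries. VeA and AbaA were longer than 86.4% and 89.5% of these genes, and Con-13 was longer than 19.6%.

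VeA, the velvet regulator, was highest in passage 1, lower in passage 2 and lower again from passage 3 on. Its FPKM in passages 1 to 6 were 86.1, 41.1, 34.6, 32.1, 32.5 and 33.7, from 972 to 2156 counts. Passage 1 stood above every later passage, passage 2 came next, and passages 3 to 6 had overlapping 95% counting intervals. Among genes with a level above 0, VeA went from the 83.2nd percentile of FPKM in passage 1 to between the 59.0th and the 66.5th afterwards.

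AbaA, the conidiation transcription factor, had the highest level per length of the 3 genes in 5 of the 6 libraries, and it moved up and down after passage 1. In the same order its FPKM were 231.7, 52.4, 31.05, 81.0, 39.2 and 94.0, from 956 to 6358 counts. The libraries ranked 1, 6, 4, 2, 5 and 3 from high to low, and no 2 of them had overlapping counting intervals. In passage 3 AbaA lay at 31.05 FPKM against 34.6 for VeA, with overlapping intervals.

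Con-13, the putative conidiation product, was the lowest of the 3 in every library and showed the largest drop. From passage 1 to passage 6 it had 53.35, 5.41, 4.64, 12.3, 2.99 and 14.7 FPKM. These values rest on 410, 59, 40, 125, 29 and 158 counts, so the later ones are less precise than those of VeA and AbaA. Passages 4 and 6 overlapped each other and stood above passages 2, 3 and 5, which overlapped among themselves. The gene went from the 73.8th percentile of FPKM in passage 1 to the 18.8th in passage 5.

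**Figure D1:**
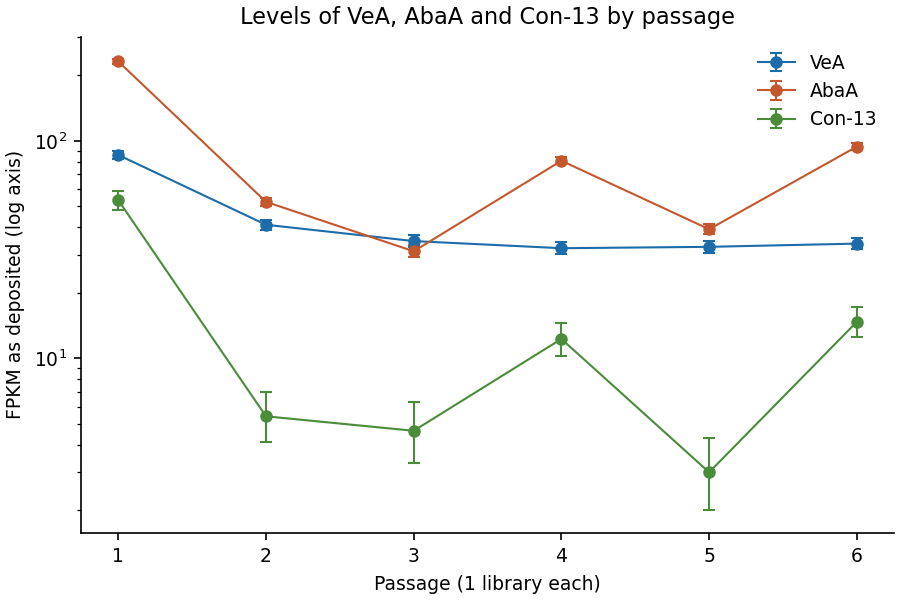
FPKM as deposited (log axis) of VeA, AbaA and Con-13 in the 6 libraries, 1 per passage; bars are 95% Poisson intervals of counting error. VeA is flat from passage 3 on near 33.7 FPKM, while AbaA and Con-13 are higher in passages 4 and 6 than in passages 2, 3 and 5.

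Each later passage was set against passage 1, the contrast for which the authors deposited gene lists. Here the log2 ratio was taken from counts scaled by TMM, which corrects library size for differences in composition, with intervals that cover counting error only. VeA had log2 ratios of -1.28, -1.60, -1.70, -1.60 and -1.59 for passages 2 to 6. This is a level 2.43 to 3.25 times lower than in passage 1. AbaA had ratios of -2.36, -3.18, -1.80, -2.76 and -1.54 in the same order, or 2.91 to 9.06 times lower. Con-13 had ratios of -3.49 (interval -3.93 to -3.12), -3.77 (-4.31 to -3.33), -2.39 (-2.70 to -2.11), -4.31 (-4.95 to -3.81) and -2.09 (-2.37 to -1.83), or 4.25 to 19.8 times lower. With 1 library against 1, none of these ratios has a test.

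All 3 genes were thus at least 2-fold lower than passage 1 in all 5 later passages. This held for 413 of 8483 genes, or 4.87%. In the single comparisons, from passage 2 to passage 6, 11.0%, 13.2%, 9.94%, 13.3% and 10.9% of genes were at least 2-fold lower. The 5 comparisons share the passage 1 library, so they are not separate observations of a drop. In the authors' deposited tables, which hold genes past an FDR threshold from 1 library against 1, all 3 genes were listed as lower in each of the 5 comparisons. From passage 2 to passage 6 the authors' deposited tables list 6.15%, 7.4%, 4.77%, 8.05% and 5.64% of the 10385 genes as lower. With the trend in gene length removed, the ratios of VeA and AbaA came nearer to 0 and those of Con-13 moved away from it. VeA in passage 2 then had -0.94, less than a 2-fold difference, and AbaA in passage 6 had -1.10. Con-13 had -4.63 in passage 5 and -2.47 in passage 6.

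**Figure D2:**
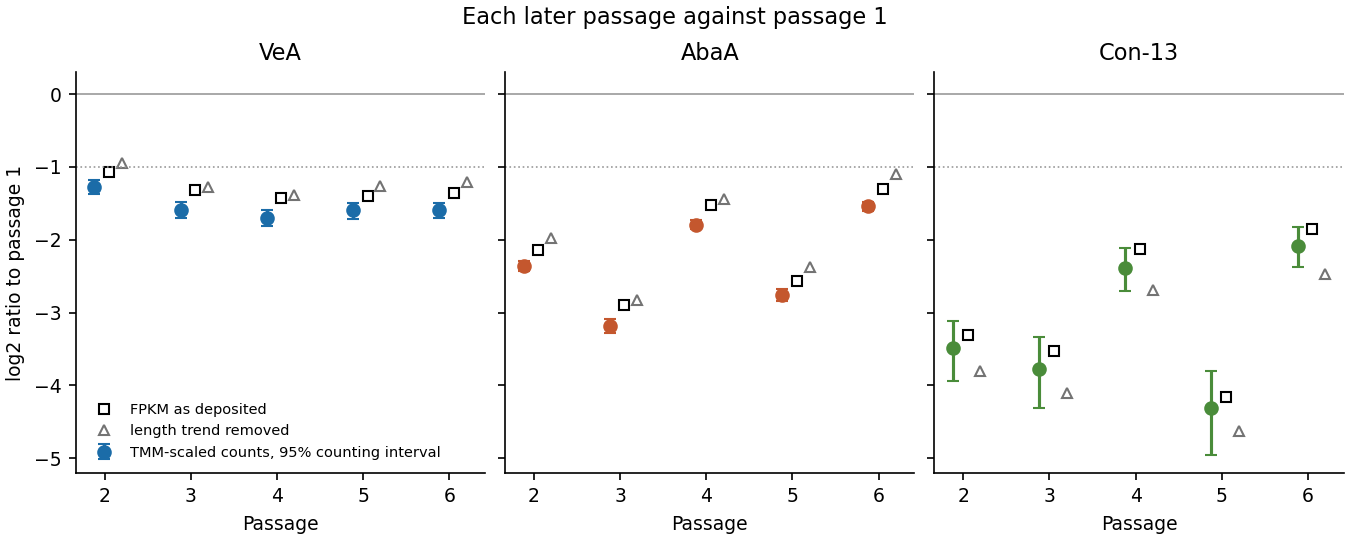
Log2 ratio of each later passage to passage 1 for the 3 genes, from TMM-scaled counts (filled, with 95% counting intervals), from FPKM as deposited (squares) and with the length trend removed (triangles); the dotted line marks a 2-fold lower level. Every value lies below 0, and 1 of them, VeA in passage 2 with the length trend removed (-0.94), lies above the dotted line.

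Passage 1 was also set against the 5 later passages together with edgeR's quasi-likelihood test, fitted over 8758 genes with Benjamini-Hochberg adjustment. The genes described here were chosen with this result known, so the fit describes them and supports nothing. Of all genes tested, 14.4% fell and 9.58% rose, or 1264 and 839 genes. That split turned in limma fits that changed the scaling and the test together. Under quantile scaling 753 fell and 902 rose, and with log2(FPKM + 1) 749 fell and 1799 rose. The median ratio of FPKM to passage 1 over genes lay 0.21 to 0.30 log2 above 0, against 0.00436 to 0.0394 for TMM. The 3 genes fell in each of these settings, apart from AbaA under quantile scaling. VeA fell by 1.55 log2 (SE 0.164, adjusted p = 0.00345). AbaA fell by 2.21 log2 (SE 0.486, adjusted p = 0.0204), and Con-13 fell by 2.98 log2 (SE 0.64, adjusted p = 0.019). The fit assumes that the lone passage 1 library varies like the other 5. Once the trend in gene length was taken out, AbaA no longer passed, with a difference of -1.81 log2 (edgeR adjusted p = 0.0542). Under quantile scaling it had -1.96 log2 (limma adjusted p = 0.0563). VeA and Con-13 passed in both settings.

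A steady decline over the passages was then tested, with passage number as a numeric term in the same edgeR model. Over passages 1 to 6 the slopes were -0.28 log2 per passage for VeA (SE 0.088, adjusted p = 0.38), -0.27 for AbaA (SE 0.176, adjusted p = 0.479) and -0.40 for Con-13 (SE 0.233, adjusted p = 0.439). None of the 3 passed, and of all 8758 genes 0.0% did. In edgeR 1129 genes, VeA among them, had an unadjusted p under 0.05. DESeq2 called 56 genes, none of the 3 among them.

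The slopes of AbaA and Con-13 were above 0 once passage 1 was set aside, and they did not pass. Over passages 2 to 6 they were 0.20 log2 per passage for AbaA (SE 0.144, edgeR adjusted p = 0.82) and 0.30 for Con-13 (SE 0.208, edgeR adjusted p = 0.822). VeA had -0.07 (SE 0.0497, edgeR adjusted p = 0.843), and 0.011 when passage 2 was left out as well. Leaving out passage 6 brought the slopes of AbaA and Con-13 down to 0.026 and 0.0054 log2 per passage. No gene passed in edgeR over these 5 libraries (0.0% of 8742 genes, 524 with an unadjusted p under 0.05), and DESeq2 called 37 genes, none of the 3 among them.

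After passage 1, VeA varied less than the other two. On the TMM scale the highest later passage of VeA was 1.34 times the lowest (counting interval 1.24 to 1.45). For AbaA it was 3.12 times (2.90 to 3.35) and for Con-13 4.65 times (3.20 to 7.36). AbaA and Con-13 moved together: both ranked passages 1, 6, 4 and 2 in that order, above passages 3 and 5, which changed places between them. This order, picked out after the values were seen, held for 154 of 8483 genes, or 1.82%. Over the 5 later libraries the Pearson correlation of their log2 CPM was 0.901, and VeA had -0.146 with AbaA and -0.282 with Con-13. These 5 libraries are single cultures of one lineage, and the correlations are a description of them.

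Other genes were ranked by how closely their log2 CPM, scaled by TMM, followed each of the 3. Among 6049 genes with a named product and a mean of at least 10 FPKM, those most like VeA over the 6 libraries were a CaaX prenyl protease (CCM_07901), with a Pearson r of 0.997, cytochrome P450 51 (CCM_05535), the sterol demethylase, with 0.996, and a glycerol-3-phosphate dehydrogenase (CCM_03540), with 0.996. Cytochrome P450 51 had 661.3 FPKM in passage 1 and 242.8 to 338.4 afterwards. Those most like AbaA were a lectin/glucanase-like protein (CCM_02355, r = 0.997), a toxin biosynthesis protein (CCM_00260, r = 0.994) and a polygalactosaminidase (CCM_09229, r = 0.993), an enzyme that cuts a galactosamine polymer. The polygalactosaminidase had 36.1, 5.60, 3.74, 11.7, 4.34 and 14.5 FPKM in passages 1 to 6. Those most like Con-13 were an exosome exonuclease (CCM_01007, r = 0.996), an endothiapepsin precursor (CCM_02698, r = 0.996), which is an aspartic protease, and a superoxide dismutase (CCM_08562, r = 0.993). Their levels spanned a narrower range than that of Con-13: CCM_01007 ran from 49.2 to 64.5 FPKM. In FPKM CCM_01007 had 64.35 in passage 1 and 64.46 in passage 6. The superoxide dismutase had 152.3 in passage 1 and 145.04 to 167.14 afterwards. Only the endothiapepsin precursor was highest in passage 1, with 37.78 against 15.48 to 28.45. The r values are on the TMM scale, where the median ratio of each later passage to passage 1 was lower than with FPKM. Over passages 2 to 6 alone the closest genes were a dual specificity phosphatase (CCM_07442) for VeA with r = 0.998, an amine oxidase (CCM_02493) for AbaA with r = 0.999 and a glutathione S-transferase of the kappa class (CCM_07450) for Con-13 with r = 0.997. With so few libraries and so many genes, values this near to 1 are the top of a long ranking. Passage 1 took no part in the ranking over passages 2 to 6. In passage 1 CCM_07442 had 34.45 FPKM, against 43.67 to 67.8 afterwards, and CCM_07450 had 20.96, against 36.35 to 45.82. Both were thus lowest where VeA and Con-13 were highest. The amine oxidase, like AbaA, was highest in passage 1, with 171.11 FPKM against 61.69 to 136.21.

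Genes named as partners or relatives of VeA did not pass in this comparison. Of the 4 genes in the list of velvet and global regulators 1 fell, VeA itself, and none rose, against 14.4% and 9.58% of all genes. The list's median was -0.24 log2, and -0.06 without VeA, against 0.05 over all genes tested. LaeA (CCM_05395), the methyltransferase that acts with VeA in A. nidulans, had -0.43 log2 (SE 0.227, adjusted p = 0.204), with 52.1 FPKM in passage 1 and 37.1 to 53.4 afterwards. VosA (CCM_02384), a velvet protein of spore maturation in A. nidulans, had 0.15 log2 (SE 0.239, adjusted p = 0.678). A gene outside the reference annotation with a velvet factor domain (TCONS_00015403) had -0.06 log2 (SE 0.607, adjusted p = 0.957) and ranged from 23.8 to 91.0 FPKM. With the length trend removed, LaeA had -0.69 log2, VosA -0.09 and TCONS_00015403 -0.13. The list's median was then -0.41 log2, against 0.05 over all genes tested. Whether VeA differed from these genes in its change was not tested.

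Genes named for the conidiation cascade and for sporulation moved in both directions. None of them was named BrlA or WetA. RMD1, RMD8 (CCM_01037), SPS19 and Dit2 were matched by the word sporulation alone. Without AbaA, which was chosen with its fall known, the median of the list was 0.49 log2. Of 10 tested, 2 fell and 3 rose, with a median of 0.41 log2, against 14.4% and 9.58% of all genes and their median of 0.05. Beside AbaA, RMD1 (CCM_02402), named for a yeast gene of meiotic division, fell by 0.86 log2 (SE 0.133, adjusted p = 0.00719). A gene with a FluG domain (TCONS_00012363) rose by 1.53 log2 (SE 0.343, adjusted p = 0.0215), from 12 counts in passage 1. The gene hymA (CCM_07465), which A. nidulans needs for normal conidiophores, rose by 1.05 log2 (SE 0.27, adjusted p = 0.0328), and SPS19 (CCM_02294), named for a peroxisomal enzyme of yeast sporulation, rose by 1.13 log2 (SE 0.331, adjusted p = 0.0474). In the fit without the length trend none of these 3 rises passed (edgeR adjusted p = 0.0549, 0.0632 and 0.116), whereas RMD1 did (adjusted p = 0.0133). The developmental modifier Medusa (CCM_01634) had -0.83 log2 (SE 0.287, adjusted p = 0.0754). A second gene named AbaA (CCM_06097), after a protein of Purpureocillium lilacinum, was low at 2.83 to 4.88 FPKM and had 0.33 log2 (SE 0.261, adjusted p = 0.377). The regulator flbA (CCM_07203), which in A. nidulans restrains G protein signalling so that conidiation can begin, had 78.3, 79.4, 100.4, 168.2, 200.01 and 103.9 FPKM in passages 1 to 6 and did not pass (0.49 log2, adjusted p = 0.504).

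Among conidial products and conidiation-specific genes, 7 of the 10 matched genes could be tested, 2 fell and none rose, with a median of -0.94 log2, against 14.4% and 9.58% of all genes and a median of 0.05. Without Con-13, 1 of the remaining 6 fell and their median was -0.59. The other gene that fell was a C2H2 conidiation transcription factor (CCM_02232), at -1.08 log2 (SE 0.205, adjusted p = 0.013), with 32.7 FPKM in passage 1 and 16.5 to 22.1 afterwards. It also passed without the length trend (adjusted p = 0.0138). CCM_05902, also named as conidiation-specific, had too few counts to be tested, with 0 in passage 1 and 8, 3, 6, 2 and 5 in passages 2 to 6. None of the 4 tested hydrophobins, small proteins that coat aerial hyphae and conidia, passed. The hydrophobin CCM_06862 had 727.0, 148.6, 63.0, 475.7, 111.6 and 658.3 FPKM in passages 1 to 6, a difference of -1.57 log2 (SE 1.02, adjusted p = 0.293), and CCM_07964 had 1.21 log2 (SE 0.532, adjusted p = 0.136). The other two, CCM_06854 and TCONS_00012154, had 0.50 and -0.24 log2 (adjusted p = 0.46 and 0.772). The conidial pigment oxidase CCM_01924 had -0.94 log2 (SE 0.336, adjusted p = 0.0831). The pattern of AbaA and Con-13 in the later passages, with passages 4 and 6 both above passages 2, 3 and 5, was also looked for in these lists after the values were seen. It held for 5 of the 19 other list genes whose mean FPKM was 1 or more, CCM_06862, CCM_07964, CCM_01924, CCM_06097 and the sporulation-specific P450 Dit2 (CCM_07929), against 15.4% of all 8483 genes.

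**Figure D3:**
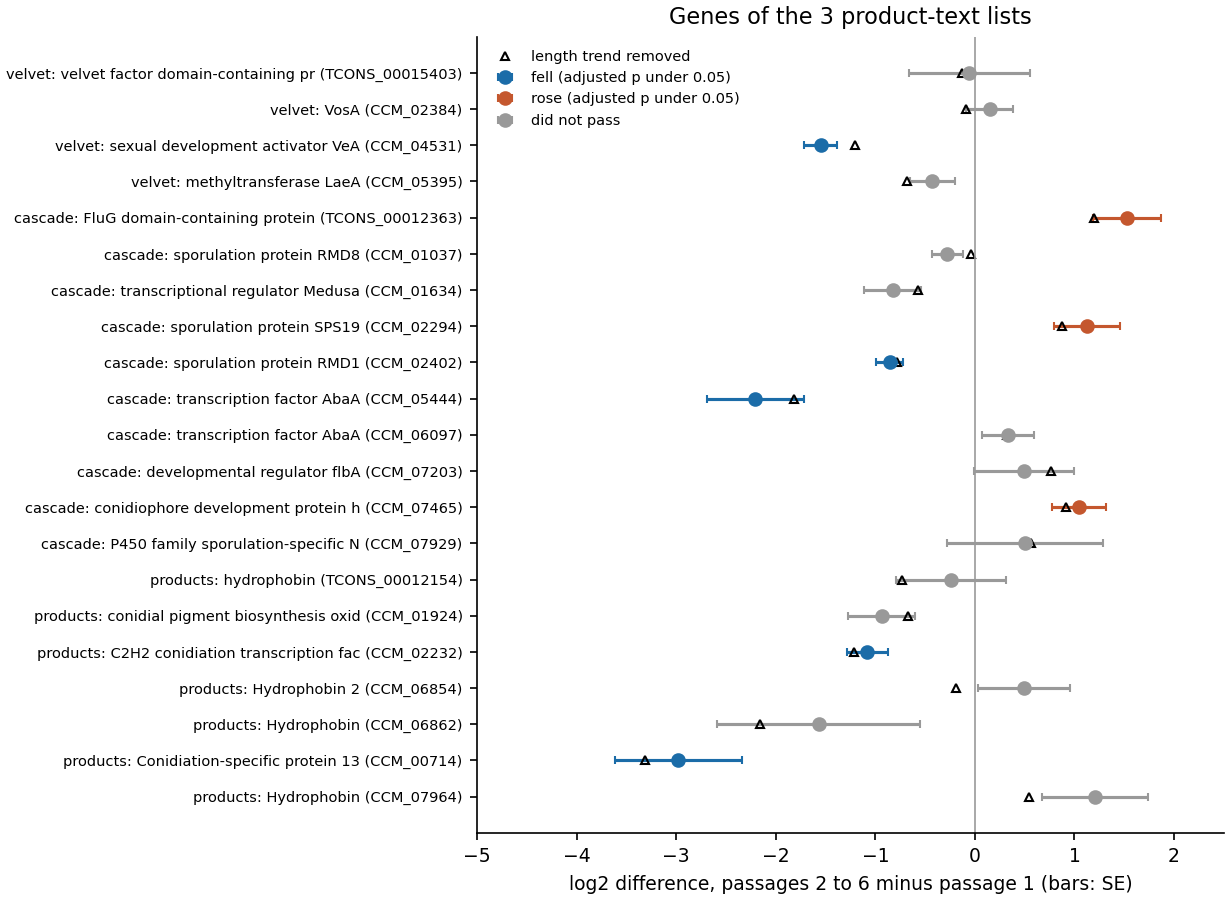
Log2 difference of passages 2 to 6 from passage 1 with its SE for the 21 tested genes of the 3 lists (blue fell, orange rose, grey did not pass; triangles with the length trend removed). Con-13 at -2.98, AbaA at -2.21 and VeA at -1.55 stand with CCM_06862 at the low end, and the 3 genes that rose lie between 1.05 and 1.53.

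The 2 annotated genes on each side of the 3 on their scaffolds were read for shared movement. Of those tested, only CCM_05446 fell and only CCM_05445 rose, against 14.4% and 9.58% of all genes. CCM_05446, a family 2 glycosyl transferase and the second gene beyond AbaA, fell by 1.60 log2 (SE 0.173, adjusted p = 0.00345), while CCM_05445, which lies between them, rose by 0.70 log2 (SE 0.192, adjusted p = 0.039). The gene 1520 bp beyond Con-13, a cyanovirin-N protein (CCM_00715), had 9.74, 2.16, 0.99, 2.94, 1.10 and 6.37 FPKM in passages 1 to 6, on 4 to 35 counts. Its ranking of the libraries was close to that of Con-13, but the difference did not pass (-2.06 log2, SE 0.797, adjusted p = 0.101). The neighbour on the other side of Con-13, an alcohol acetyltransferase (CCM_00713), stayed between 12.3 and 17.0 FPKM. None of the 3 tested neighbours of VeA passed, and the fourth, CCM_04532, was listed at 0 in every library.

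Splice junctions gave a second view of the same reads. For VeA the authors' tables listed 2 junctions that start at the same donor, at 2888835. Whether these positions count from 0 or 1 is not stated, so single coordinates and distances to them may be off by 1 bp. The annotated one ends at 2888504 and had 27, 33, 9, 28, 27 and 20 reads in passages 1 to 6. The other, given the class word "other", ends at 2888669 and had 412, 349, 194, 252, 229 and 192 reads. It leaves an intron 165 bp shorter, a multiple of 3 with the length of 55 codons. Whether the added stretch is read as codons was not tested. Most reads used the unannotated acceptor in every library. Its share was 93.8% in passage 1 (Wilson 95% interval 91.2 to 95.7) and then 91.4%, 95.6%, 90.0%, 89.5% and 90.6% (85.9 to 93.8 in passage 6). The intervals of all 6 libraries overlapped. Across the genome, in passage 1, 164 of 486 annotated junctions that share a border with another junction of the gene had fewer reads than it (33.7%), and for 23.3% the other had at least 10 times as many.

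**Figure D4:**
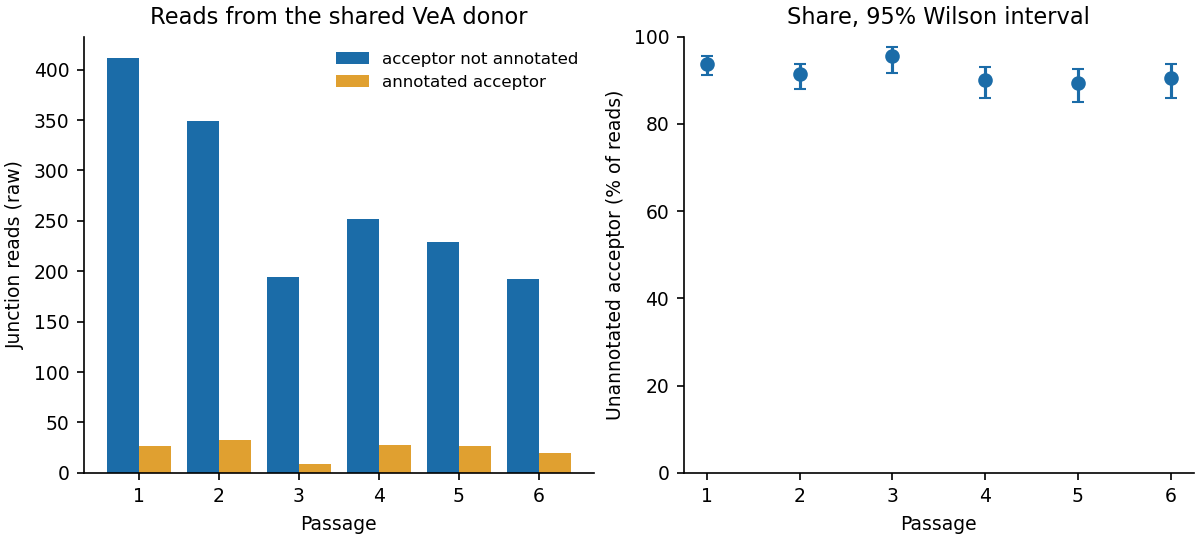
Left, raw reads at the annotated and the unannotated acceptor of the VeA intron in each passage; right, the share of the unannotated acceptor with its 95% Wilson interval. The share lies between 89.5% and 95.6% in all 6 libraries.

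For AbaA 1 junction was listed, with 522, 185, 98, 313, 118 and 303 reads in passages 1 to 6. Con-13 had 2, of which the first had 219, 40, 29, 66, 16 and 94 reads and the second 218, 37, 22, 61, 13 and 85. The 2 junctions of Con-13 thus differed by at most 9 reads in any library. Scaled by TMM library size, the AbaA junction lay at log2 ratios of -1.42 to -2.86 to passage 1 and those of Con-13 at -1.94 to -4.60; for AbaA the passages ranked as in the gene counts except that 4 and 6 changed places. The unannotated VeA junction lay at -0.96 to -1.82. The annotated VeA junction, on 9 to 33 reads, had -0.43, -2.03, -0.63, -0.53 and -1.15 in passages 2 to 6.

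Read depth at variant sites showed where along each gene the reads lay. In VeA it rose sharply inside the gene model. At the 9 sites in the last exon, including the stretch added by the unannotated acceptor, the median depth was 281 reads in passage 1 and 127 to 230 in the later passages. At the 7 sites in the rest of the model it was 12 reads in passage 1 and 3 to 5 later. These include sites annotated as intronic, with 4 and 3 reads in passage 1, while the exonic ones had 3 to 13. Blocks of junction reads reached 148 bp beyond the donor, while the nearest variant site beyond it, at 177 bp, had 13, 0, 9, 14, 14 and 9 reads in passages 1 to 6. The FPKM of VeA, which divide by 2571 bp, average over both parts.

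Summed over sites, the 10 sites in the 3' extension of VeA changed less than its last exon. Their summed depth, scaled by TMM library size, had log2 ratios to passage 1 of -0.60, -0.71, -0.73, -0.50 and -1.14 in passages 2 to 6, against -1.07, -1.32, -1.48, -1.31 and -1.70 in the last exon. The summed values from the extension were nearer to 0 in all 5 passages. At the border the contrast did not hold. Before scaling, the last-exon site nearest the extension had 98, 83, 87, 83, 86 and 78 reads in passages 1 to 6. The nearest site in the extension had 50, 39, 36, 39, 37 and 27. Sites close together share reads, the sources used here do not give the strand of the reads, and the caller may have filtered or capped reads, so these depths are a description.

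In AbaA the depth was high along the model. Its 4 exonic sites had 551 to 785 reads in passage 1, and 2 sites annotated as intronic had 802 and 265, with no junction listed across them. Summed over the 6 sites of the model, the scaled log2 ratios to passage 1 were -2.56, -3.36, -2.03, -3.00 and -1.96 in passages 2 to 6. The 2 sites upstream of AbaA, 1 of which also lies downstream of CCM_05445, had -0.44, -0.66, -0.36, -0.12 and -1.15. In Con-13 the 5 exonic sites had ratios of -3.17, -3.59, -2.37, -4.40 and -2.17, again lowest in passage 5.

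**Figure D5:**
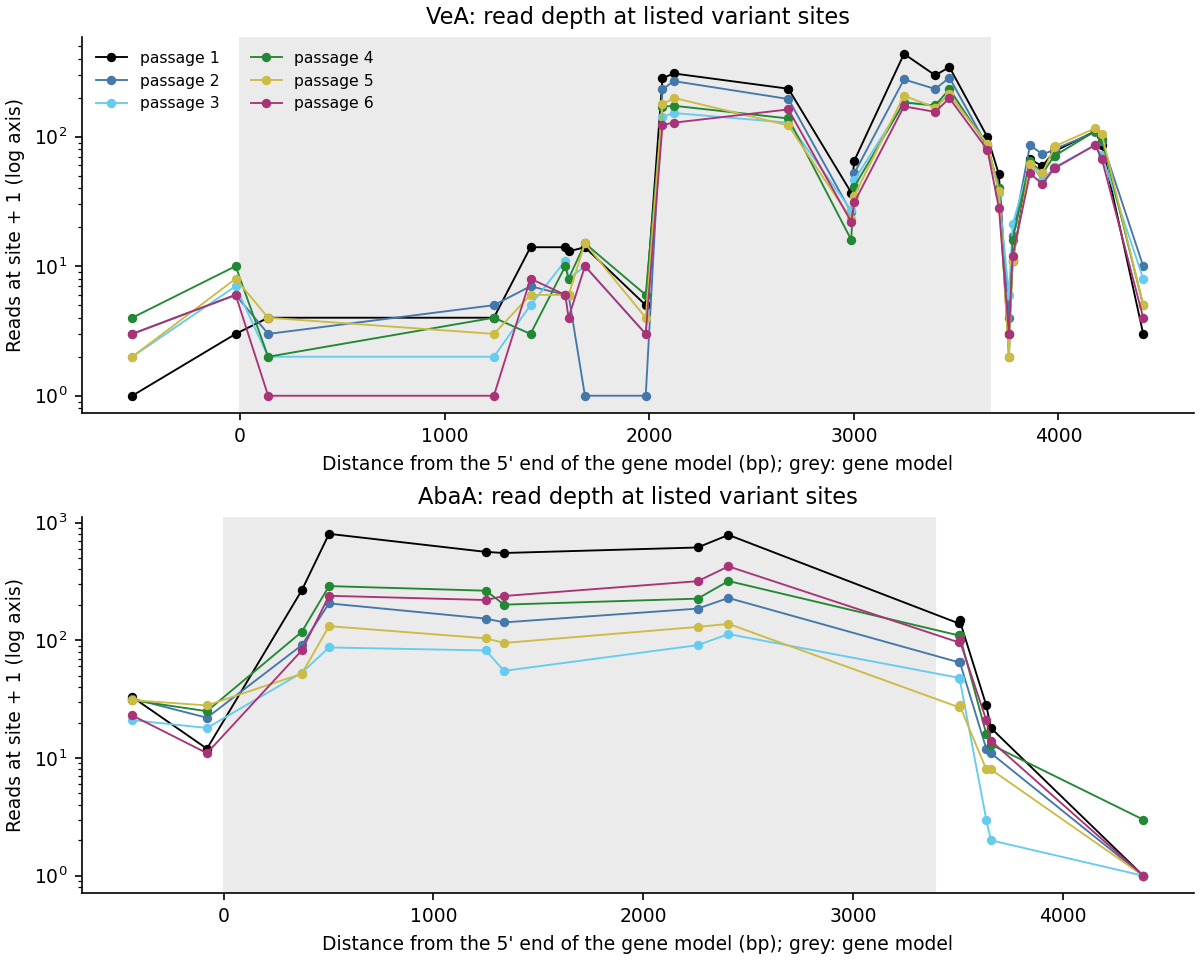
Reads at each listed variant site plus 1 (log axis) against distance from the 5' end of the gene model (grey) for VeA and AbaA, 1 line per passage, not scaled by library size. In VeA the depth in passage 1 is 13 reads at the last exonic site before the intron and 281 where the last exon with its added stretch begins. The site with 4 reads between them lies in the intron of both listed junctions. Inside that exon the depth dips to 36 at 1 site. In AbaA passage 1 lies above the others along the whole model.

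The variant sites themselves set the YCC strain apart from the CM01 reference, and the genotypes were the same in all 6 libraries wherever each had 10 or more reads. VeA had 28 listed sites within its model and flanks, AbaA 13 and Con-13 7. Of these 17, 10 and 3 had at least 10 reads in every library, and at all of them every library was given the genotype with the alternative allele alone. Reference reads made up 0.168% of the 11336 reads at those VeA sites, 0.0506% of 9875 in AbaA and 0 of 1208 in Con-13. The single site with a mixed genotype, 3' of AbaA at 1305232, had 3 alternative reads of 17 in passage 1 (17.6%, Wilson interval 6.19 to 41.0) and 2 of 12 in passage 4 (16.7%, 4.70 to 44.8), and none of the 1 to 13 reads in the other libraries. This depth cannot show a difference between passages. None of the 11304 listed RNA editing events lay within 1000 bp of the 3 genes.

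Several of the listed differences change the protein, with residues counted from 1 at the start of the reference model. AbaA carried V227I, V563A and E612A, and Con-13 carried A6S and S65N. In the last exon of VeA 1 of 7 exonic sites changed a residue, P530H, with 121 to 233 reads in each library. The 5' part of the VeA model held V309F, L282P and P277S together with a deletion of 2 bases that shifts the frame (Q220fs) and a stop codon (S33X). The frameshift rests on 13, 6, 4, 2, 5 and 7 reads in passages 1 to 6, all of them with the deletion. The stop codon rests on 9 reads in 4 libraries, with 1 reference read in passage 3 and no read in passage 6. Both lie in the part of the model with few reads, so the abundant VeA reads of the last exon do not show whether the same transcripts carry them.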

How the data were processed

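The 3 genes, the gene lists and the tests were chosen with earlier results of these data known. The authors deposited expected counts per gene (not normalised; 36 to 50 values per library not whole) and FPKM, per the file headers. The deposited gene lists give a log2 ratio, a p-value and an FDR, per the file headers. For the 3 genes this ratio equals the log2 ratio of FPKM. The variant table deposited by the authors gives a quality score and read pairs per site; the deposited editing table gives a fraction of reads, and the junction tables raw read counts. The submitters' processing notes name the tools Bowtie, TopHat2, Cufflinks, FastQC and edgeR; their settings, strand use and the variant caller are not given in these sources. Another 56 deposited columns with values per sample were left unused.

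Counts were rounded, filtered with edgeR's expression filter and scaled by TMM. They were tested with edgeR 4.0.16 (quasi-likelihood, two-sided, Benjamini-Hochberg at 0.05 over all genes tested). The tests were also run on simulated counts, drawn independently with the same spread for every gene and library. Such counts cannot check whether the lone passage 1 library varies like the others, or whether libraries of one lineage are independent. Log2 CPM used a prior count of 1. Gene length is the length implied by count and FPKM; the length trend of each library was removed by a smooth offset. Alternatives used DESeq2 1.42.0 and limma 3.58.1 with pseudocounts of 1 and 0.1. Lists were matched by product text. Most alike genes are the 3 with the highest Pearson r over 6 libraries and the 1 over passages 2 to 6; neighbours are 2 on each side; list genes are named where they passed or bear on the 3. Intervals cover counting error only, and amplified reads are not independent molecules. All 9651 locus tags matched RefSeq's gene table.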

Additional observations from a re-analysis of the deposited data

How the results depend on the processing

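Of 156 values recomputed under other settings, 130 kept their direction and side of the threshold, or stayed within the counting interval. Of the recomputed ratios of a later passage to passage 1, 24 stayed within the counting interval and 21 moved outside it. No slope of the 3 genes passed in the main fit. Among recomputed slopes, 37 over passages 1 to 6 and 35 over passages 2 to 6 stayed the same. Another 2 and 1 reversed. Against passage 1, AbaA no longer passed under quantile scaling (-1.96) and with the length trend removed (-1.81); leaving out each later library in turn kept all 3 genes past the threshold, with VeA between -1.63 and -1.51, AbaA between -2.44 and -2.04 and Con-13 between -3.32 and -2.78 log2. Without passage 1 the slopes over the series reversed to 0.20 for AbaA and 0.30 for Con-13, and without passage 2 the VeA slope over passages 2 to 6 reversed to 0.011. With 1 library left out at a time, the slopes over the series ran from -0.56 to 0.20 for AbaA and from -0.86 to 0.30 for Con-13, and the slopes over passages 2 to 6 from -0.11 to 0.011 for VeA, from 0.026 (without passage 6) to 0.38 for AbaA and from 0.0054 (without passage 6) to 0.41 for Con-13. With FPKM as deposited, the log2 ratios to passage 1 in passages 2 to 6 were -1.07, -1.32, -1.42, -1.40 and -1.35 for VeA and -2.15, -2.90, -1.52, -2.56 and -1.30 for AbaA. With the length trend removed they were -0.94, -1.28, -1.39, -1.26 and -1.21 for VeA, -1.97, -2.83, -1.44, -2.38 and -1.10 for AbaA, and -2.47 for Con-13 in passage 6. Why the values moved was not tested beyond these settings. The number of genes called in the comparison with passage 1 was 2103, against 1450 with the length trend removed and 1406 (without passage 5) to 2543 (without passage 6) with 1 later library left out. For the slopes edgeR called 0 genes over either span, while DESeq2 called 56 over passages 1 to 6 and 37 over passages 2 to 6. No paired analysis was possible because each passage has 1 library. Con-13 rests on 29 to 158 counts after passage 1, which limits its precision.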
